A study of Mus musculus with 30 samples.

Results

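The basal transcriptome of AML12 cells depleted of both FoxK1 and FoxK2 (double knockdown, DKD) was compared with that of Control cells, using every gene of the deposited count tables. The comparison used 8 of the 30 sequenced samples, the 4 DKD and the 4 Control cultures that received no insulin, chosen by their genotype and treatment labels. AML12 is a hepatocyte line derived from a mouse carrying a human TGF-alpha transgene, and the knockdowns were made with siRNA, so that some Foxk1 and Foxk2 RNA is left in every culture and the Control cells carry a non-targeting siRNA. All cells were starved of serum overnight in DMEM with 0.1% BSA and then mock treated or given insulin at 100 nM for 6 h. The labels put the basal samples at 0 h, whereas the text of the study describes 6 h of vehicle. The remaining samples were FoxK1 KD and FoxK2 KD cells at basal (4 each), and insulin-stimulated cells of every genotype (3 samples each of Control and DKD, 4 each of the single knockdowns). Nothing in the labels says whether replicates were separate cultures or separate transfections, so the p-values measure the spread between these samples only. Total counts of the 8 libraries ran from 2141460 (DKD replicate 3) to 5668270 (Control replicate 4). Of 49089 genes in the tables, 11368 passed the filter on low counts and were tested.

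FoxK1 and FoxK2 are forkhead transcription factors that bind the forkhead core GTAAACA and recruit the SIN3 histone deacetylase corepressor and the BAP1 deubiquitinase complex. In liver cells they act downstream of insulin, Akt and mTOR, and they move into the nucleus when FoxO factors leave it. They are known for restraint of autophagy genes in fed cells and for roles in glycolysis, the cell cycle and lipid metabolism.

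Several properties of the libraries bear on everything that follows. Control replicate 1 stood apart from the other Control libraries. Regressed on GC content, its log2 CPM (read counts scaled to the TMM-normalized library size) rose by 0.123 for each 10 points of GC relative to the mean library, whereas those of Control replicates 2 to 4 fell by 0.117, 0.11 and 0.104. GC content moved with the comparison: the same slope was 0.0783 to 0.225 in the 4 DKD libraries, below 0 in all 8 basal FoxK1 KD and FoxK2 KD libraries (-0.293 to -0.0143) and between -0.0783 and 0.142 in the insulin libraries. In addition, 52 genes were lower, and 83 higher, in each of 12 libraries than in all 18 others. The 12 were the basal Control, FoxK1 KD and FoxK2 KD libraries, and the 18 were basal DKD and the 14 insulin-stimulated libraries. The genes were selected by this split, which sets the side of basal DKD, and no other split is counted here. In DKD against Control at basal, 49 of the 52 were called higher and 79 of the 83 lower. Rps2-ps10, a processed pseudogene, was at 0.66 CPM or less in the 12 and between 2.87 and 17.4 CPM in the 18. At basal, this divide between libraries and the DKD genotype cannot be told apart. Differences between basal DKD and basal FoxK1 KD or FoxK2 KD cells cross the same divide and carry the same limit. DKD and Control cells after insulin lie on the same side of that divide and share no sample with the basal comparison. Their values are therefore given beside the basal ones for many of the genes. Of the 106 genes selected for naming, 17 were called after insulin.

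**Figure D1:**
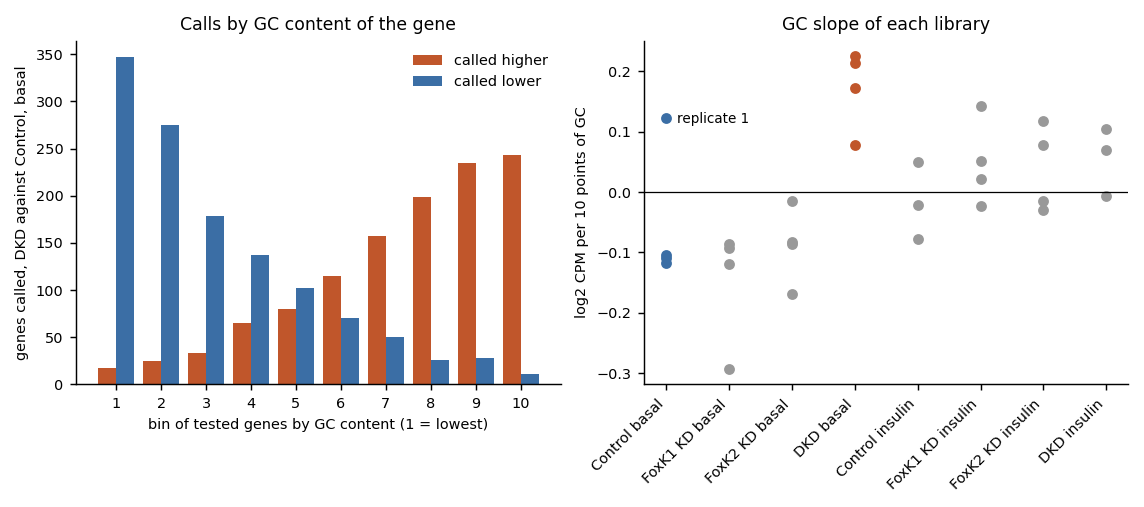
Left, number of genes called higher or lower in basal DKD than in basal Control cells in each of 10 equal bins of the tested genes by GC content. Right, slope of log2 CPM on GC content in each library, in log2 CPM per 10 points of GC, with Control replicate 1 marked. Calls changed from 17 higher and 347 lower in the bin of lowest GC to 243 higher and 11 lower in the bin of highest GC, and Control replicate 1 had a slope of 0.123 while the other Control libraries were below 0.

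Both targets were depleted in every DKD library. Foxk1 (chr5:142401497-142462011, GRCm38) was at 87.6, 83.5, 66.2 and 88.4 CPM in the 4 Control libraries and at 44.2, 49.7, 49.0 and 42.9 CPM in DKD. Foxk2 (chr11:121259990-121309896) was at 149.7, 144, 133 and 134 CPM in Control and at 52.0, 54.7, 52.3 and 41.9 CPM in DKD. No DKD library reached the lowest Control library for either gene, and the mean DKD level was 57.1% of Control for Foxk1 and 35.8% for Foxk2. The log2 fold changes were -0.82 (standard error 0.12, edgeR adjusted p = 8.9e-06) and -1.49 (0.09, adjusted p = 8.1e-14). Foxk2 depletion did not differ between DKD and FoxK2 KD cells beyond its error (log2 difference 0.08, adjusted p = 0.61), and for Foxk1 the level in DKD cells was 0.32 above that in FoxK1 KD cells on the log2 scale (adjusted p = 0.058). After insulin the log2 fold changes in DKD were -0.62 for Foxk1 (adjusted p = 0.022) and -1.34 for Foxk2 (adjusted p = 5.0e-11).

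In the edgeR quasi-likelihood test with Benjamini-Hochberg adjustment, 1169 genes were higher and 1229 lower in DKD than in Control cells at basal at an adjusted p under 0.05. These were 10.3% and 10.8% of all genes tested, 21.1% together, and the looser threshold of 0.25 that the study used called 43.6%. Most changes were small: the median absolute log2 fold change of the called genes was 0.437, and 364 genes rose and 261 fell by more than 1.5-fold. In 1648 of the 2398 called genes the 4 DKD libraries did not overlap the 4 Control libraries, as they did not in 18.4% of all genes tested. Of the 24 genes that rose more than 4-fold, 21 were not protein-coding, most of them processed pseudogenes, and 8 were among the 52 genes of the divide between libraries. Pseudogenes share sequence with their parent genes, and how reads were split between them is uncertain.

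GC content went with the direction of the calls. Genes called higher had a median GC content of 54.2%, genes called lower 43.6% and all tested genes 49.3%, and across the 11346 genes with a GC value the Spearman correlation of the log2 fold change with GC was 0.466, given as a description since genes are not independent and share libraries. After insulin it was 0.203. When smooth trends on GC and transcript length were removed from each library, 802 genes were higher and 1046 lower, and 56.2% of the 2398 calls were made in the same direction. Without Control replicate 1, 1480 genes were higher and 1583 lower, and 85.8% of the calls held.

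After insulin stimulation, 99 genes were higher and 39 lower in DKD than in Control cells (3 against 3), 1.21% of those tested. Of the 2398 genes called at basal, 1767 (73.7%) had the same sign after insulin, against 62.6% of all tested genes, and 82 were called in the same direction and none in the opposite one. The 82 were 3.42% of the basal calls and 59.4% of the insulin calls. The median absolute log2 fold change of the basal calls was 0.437 at basal and 0.148 after insulin. The difference between the effects in the 2 states passed an adjusted p under 0.05 in 175 genes (1.54%), of which 165 were called at basal.

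The 82 genes called in both states, in comparisons that share no sample, were 59 that rose and 23 that fell. Of the 82, 74 did not overlap between groups at basal, against 68.7% of all genes called at basal. With GC and length trends removed, 69 were also called at basal, against 56.2% of all basal calls. Both counts rest on the basal values by which the 82 were in part chosen. Apart from Foxk1 and Foxk2, the 82 included Thbs1, C3, Serpina1a, Serpina1b, Ptgds, Gstm1, Gstm2, Ctsf, Fas, Sgk1 and Pdk2 among the genes that rose, and Scd1, Top2a, Rrm2 and Hsd17b7 among those that fell. Others, chosen after their values were seen, were Sept4, a septin, with a log2 fold change of 1.10 at basal and 0.97 after insulin, Saa3, an acute-phase serum amyloid A (0.88 and 1.28), Slc6a18, an amino acid transporter (0.93 and 1.15), Pdcd4, an inhibitor of translation initiation (0.34 and 0.72), and Fbxo32, the ubiquitin ligase atrogin-1 and a FoxO target (0.31 and 0.76). Among those that fell were Tfrc, the transferrin receptor (-0.67 and -0.39), Cep55, which acts in abscission at the end of cell division (-0.77 and -0.49), and Cd109, a TGF-beta co-receptor (-0.79 and -1.02).

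**Figure D2:**
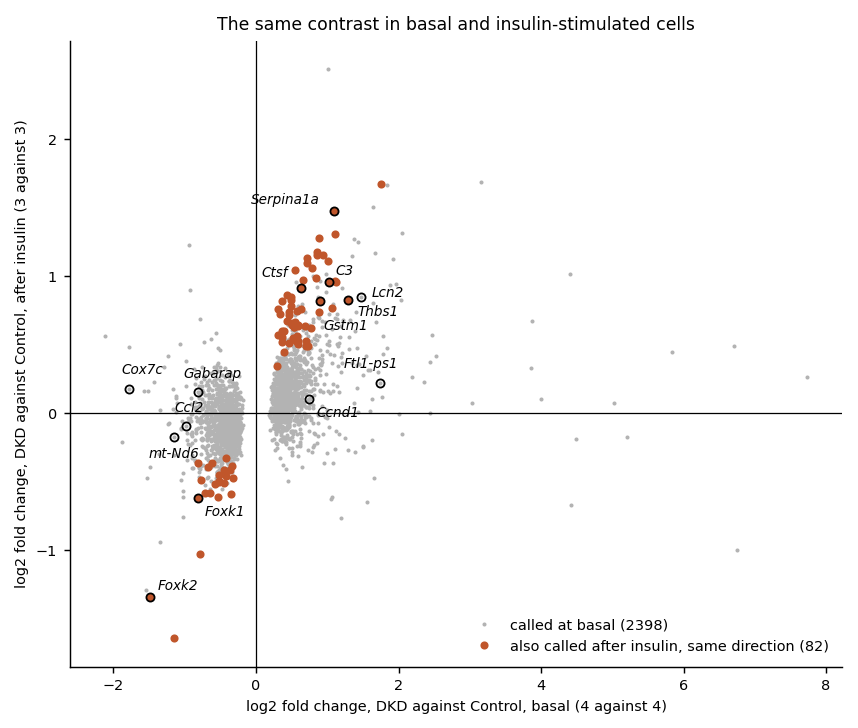
Log2 fold change of DKD against Control cells at basal (horizontal, 4 against 4) and after insulin (vertical, 3 against 3) for the 2398 genes called at basal, each point a gene. The 82 genes in colour were called in the same direction in both states. Foxk1, Foxk2, Thbs1, C3, Gstm1 and Serpina1a lie far from 0 on both axes, whereas Cox7c, Ccl2, Gabarap and Ftl1-ps1 lie near 0 on the vertical axis.

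The 8 protein-coding genes with the largest rise and the 8 with the largest fall were taken from the called genes with a mean of at least 10 CPM over the 8 samples and no overlap between groups. The rises included several secreted proteins. Thbs1, which encodes the matrix glycoprotein thrombospondin 1, was at 24.1, 25.8, 25.1 and 25.9 CPM in Control and at 51.4, 78.2, 54.1 and 62.1 CPM in DKD. Its log2 fold change was 1.29 (0.12, adjusted p = 2.5e-09) at basal and 0.83 (0.15, adjusted p = 0.0012) after insulin. The 4 Control libraries were nearly level and every DKD library was higher. Against the same Control samples the log2 fold change of Thbs1 was 1.45 in FoxK1 KD and 0.39 in FoxK2 KD cells, and DKD exceeded FoxK2 KD by 0.90 (adjusted p = 2.6e-06) but did not differ from FoxK1 KD beyond its error (-0.16, adjusted p = 0.29).

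Lcn2, the iron-siderophore-binding acute-phase protein lipocalin 2, was at 32.6, 10.5, 14.9 and 24.3 CPM in Control and at 65.5, 46.2, 63.9 and 53.1 CPM in DKD, a log2 fold change of 1.47 (0.22, adjusted p = 1.2e-05). The Control libraries spread widely, with replicate 1 the highest, yet all lay below DKD. After insulin the log2 fold change of Lcn2 was 0.85 (adjusted p = 0.098). Ptgds, a prostaglandin D synthase, rose from 32.2 ± 4.09 CPM (SD, n = 4) to 70.4 ± 4.87 (n = 4), and it rose after insulin too (1.12 and 0.96 on the log2 scale). Pltp, the phospholipid transfer protein of lipoproteins, rose from 8.16 ± 1.22 to 17.96 ± 1.70 CPM, and Sema3b, a secreted semaphorin, from 5.87 ± 1.40 to 15.1 ± 1.41 CPM. Their changes after insulin, 0.69 and 0.68, had adjusted p of 0.15 and 0.29.

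Fxyd2, a regulator of the sodium pump, was at 4.996 ± 1.44 CPM in Control and 15.7 ± 2.78 CPM in DKD, with a log2 fold change of 1.68 (0.20, adjusted p = 2.5e-07) at basal and 0.67 (adjusted p = 0.20) after insulin. Emc8, a subunit of the ER membrane protein insertion complex, rose by 1.16 on the log2 scale at basal and was 0.16 after insulin. Ftl1-ps1, annotated as protein-coding in spite of its name and close in sequence to the ferritin light chain gene, rose by 1.74 at basal and was 0.22 after insulin. Ftl1-ps1 is among the 52 genes of the divide between libraries, and reads may be shared with its parent gene.

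The largest falls beside Foxk2 were mostly not seen after insulin. Cox7c, a subunit of cytochrome c oxidase, was at 543, 108, 143 and 142 CPM in Control and at 55.7, 62.8, 84.2 and 68.8 CPM in DKD, a log2 fold change of -1.79 (0.33, adjusted p = 2.1e-04), and without Control replicate 1 it was -0.98 (adjusted p = 0.0011). Cmtm8, a MARVEL-domain membrane protein, was likewise high in Control replicate 1, at 124 CPM against 50.7 to 64.0 CPM in the other Control libraries and 27.3 to 34.7 CPM in DKD. H3f3a, one of the genes for histone H3.3, stood at 248 CPM in that library against 73.9 to 122 CPM in the others and 38.4 to 68.3 CPM in DKD, with a log2 fold change of -1.22 (0.28, adjusted p = 0.0021). In all of these genes the remaining Control libraries still lay above DKD. Hint3, a nucleotide hydrolase of the histidine triad family, fell from 49.0 ± 7.27 to 19.1 ± 5.25 CPM without a high Control replicate 1. Krt10 (a keratin) and Hmgn5 (a nucleosome-binding protein) fell by 1.43 and 1.36 on the log2 scale. After insulin the log2 fold changes of Cox7c, Cmtm8, H3f3a, Hint3, Krt10 and Hmgn5 were 0.18, -0.08, -0.07, 0.02, 0.23 and -0.29, with adjusted p from 0.77 to 0.98.

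**Figure D3:**
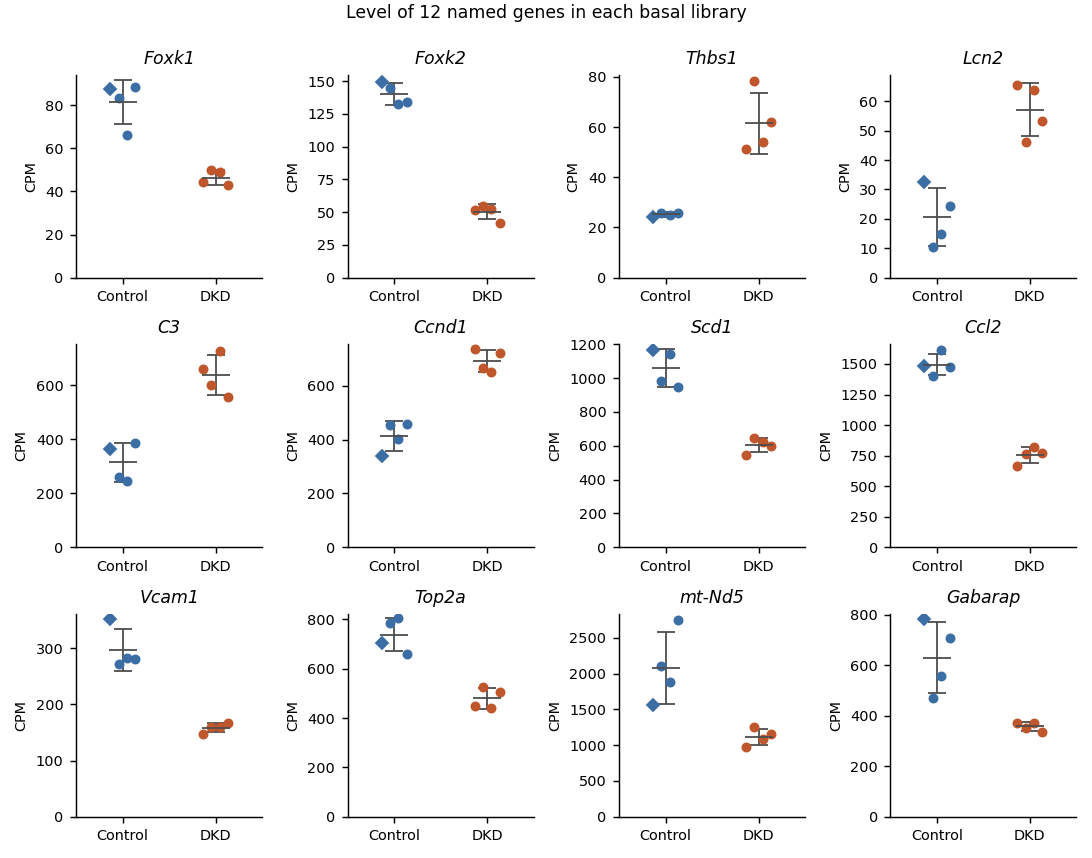
CPM of 12 named genes in each basal library of Control and DKD cells (points, replicates 1 to 4 from left to right, with Control replicate 1 as a diamond), with the mean and SD (n = 4). In all 12 genes the DKD libraries lay outside the range of the Control libraries, with Foxk2 at 41.9 to 54.7 CPM in DKD and 133 to 149.7 CPM in Control.

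Forkhead motifs were counted in RefSeq promoter windows (GRCm38.p6) that reach from 250 bases before to 50 after each start, which were found for 8740 tested genes. The motifs were GTAAACA and ATAAACA on either strand. At least one was present in 5.88% of all tested genes, in 7.0% of the 886 genes called higher and in 6.58% of the 972 called lower with a window. For GTAAACA alone the shares were 3.18%, 3.84% and 3.91%. No test was made, and a match of 7 bases is a description of the window and not a bound site. Of the 106 genes named here, 85 had a window and 4 held a motif, all 4 within the bases before the start. Their stretches follow 5′ to 3′ on the strand of the gene, with the motif or its reverse complement in capitals.
Mapkap1 (chr2:34406632-34406718, + strand): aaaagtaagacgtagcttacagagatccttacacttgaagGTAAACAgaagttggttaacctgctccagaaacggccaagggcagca
Serpina1a (chr12:103863757-103863843, - strand): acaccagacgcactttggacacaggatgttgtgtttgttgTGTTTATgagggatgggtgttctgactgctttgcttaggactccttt
Tcf7l2 (chr19:55741701-55741787, + strand): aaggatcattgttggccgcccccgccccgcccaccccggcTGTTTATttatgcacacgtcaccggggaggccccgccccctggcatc
Tomm22 (chr15:79670618-79670672, + strand): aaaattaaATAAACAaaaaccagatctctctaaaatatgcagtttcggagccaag
The motif began 99 bases before the start of Mapkap1, 184 of Serpina1a, 69 of Tcf7l2 and 242 of Tomm22, and none of the stretches overlaps an annotated exon. Of these genes, Mapkap1 and Serpina1a rose in DKD at basal and Tcf7l2 and Tomm22 fell.

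Genes of 32 processes relevant to FoxK factors and to hepatocytes were then counted by the calls of their members, beside 10.3% called higher, 10.8% called lower and a median log2 fold change of -0.0006 over all tested genes. The lists are described and not tested. Member counts under other fits are to be read beside the counts over all tested genes, 1169 higher and 1229 lower in the main fit. Those counts were 802 and 1046 with GC and length trends removed, and 1480 and 1583 without Control replicate 1.

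**Figure D4:**
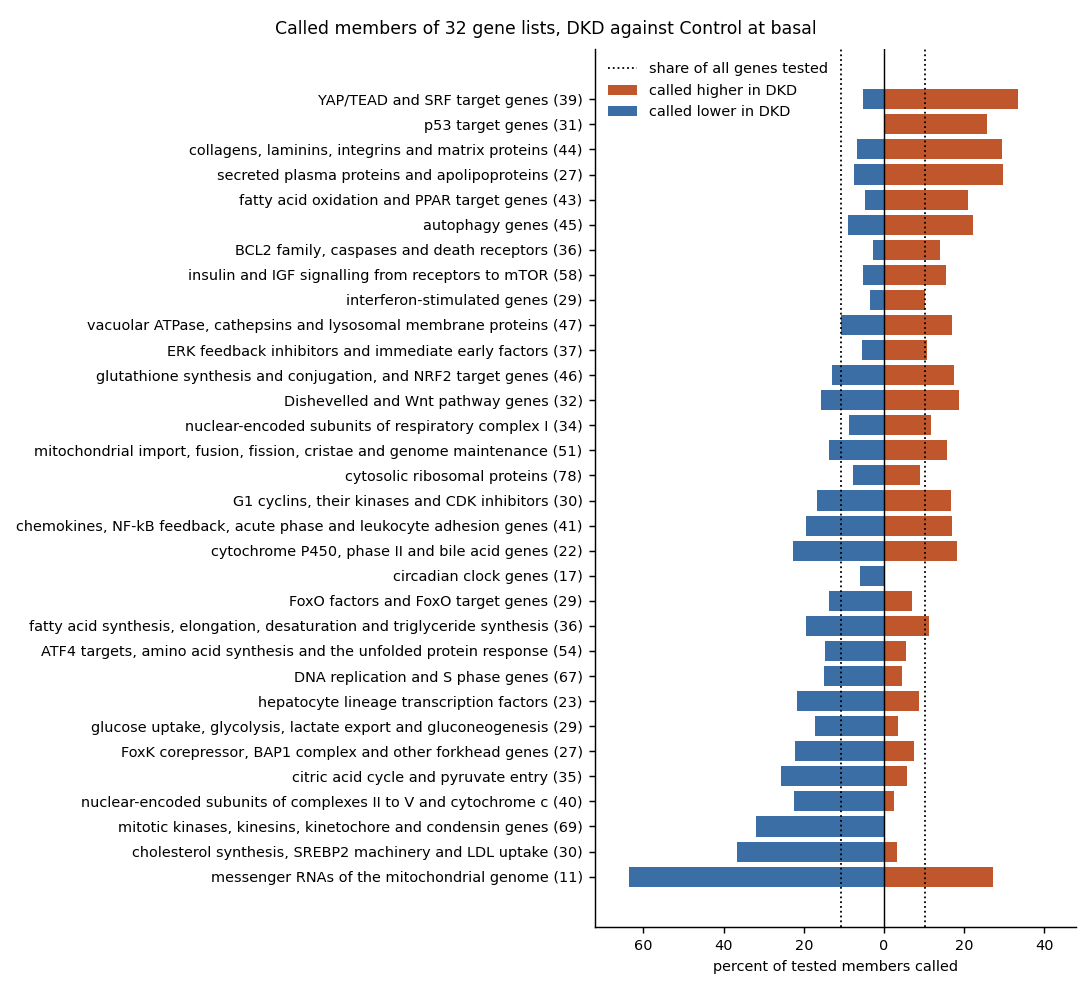
Percent of the tested members of each of 32 gene lists that were called higher (right) or lower (left) in basal DKD than in basal Control cells, with the number of tested members in parentheses and the shares of all tested genes as dotted lines at 10.3% and 10.8%. The mitotic list had 22 of 69 members lower and 0 higher, the p53 target list 8 of 31 higher and 0 lower.

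The mitotic genes that were called all fell. Of 69 tested mitotic kinases, kinesins, kinetochore and condensin genes, 22 fell, 0 rose and 47 were not called. The median log2 fold change was -0.229, and 7 members had a positive one. Top2a, the topoisomerase that untangles replicated chromosomes, was at 703, 783, 803 and 659.6 CPM in Control and at 448, 525, 439 and 507 CPM in DKD. The groups did not overlap, and the log2 fold change was -0.62 (0.08, adjusted p = 1.9e-06) at basal and -0.36 (0.09, adjusted p = 0.047) after insulin. DKD was below both single knockdowns for Top2a, by 0.32 against FoxK1 KD (adjusted p = 0.0047) and by 0.33 against FoxK2 KD (adjusted p = 0.0051). Mad2l1, of the spindle checkpoint, fell from 241 ± 17.9 to 160.2 ± 17.0 CPM, and Cenpe, a kinetochore motor, from 118 ± 15.8 to 80.2 ± 7.51 CPM. The other members that fell were Cdc25c, Sgo2a, Knl1, Bub1, Hmmr, Ttk, Nusap1, Nuf2, Plk1, Ccnb1, Smc4, Aspm, Cenpf, Ncapg, Kif11, Kif20b, Ect2, Smc2 and Tpx2. All 22 also had a negative log2 fold change after insulin, where the median of the list was -0.257 and 2 members were called lower. With GC and length trends removed, 14 were called lower and the median was -0.176.

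DNA replication genes moved less. Of 67 tested, 10 fell and 3 rose, with a median of -0.077, and 6 rose without Control replicate 1. Rrm2, the regulated subunit of ribonucleotide reductase, was at 213, 186, 182 and 152 CPM in Control and at 119, 142, 124 and 124 CPM in DKD, with a log2 fold change of -0.52 (0.09, adjusted p = 9.9e-05) at basal and -0.45 (adjusted p = 0.014) after insulin. Pola1, the catalytic subunit of primase-polymerase alpha, fell by 0.44 and Hells, a chromatin remodeler of dividing cells, by 0.44 on the log2 scale. Both lost the call with GC and length trends removed (adjusted p = 0.061 and 0.25), and for Hells the groups overlapped because Control replicate 1, at 122 CPM, lay among the DKD libraries. After insulin the median of the list was -0.246 and 3 members were lower.

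Among G1 cyclins, their kinases and CDK inhibitors, 5 of 30 rose and 5 fell, or 8 and 4 without Control replicate 1. Ccnd1, cyclin D1, was at 340.2, 455, 403 and 459 CPM in Control and at 735, 666, 649 and 721 CPM in DKD, a log2 fold change of 0.74 (0.08, adjusted p = 1.8e-08). After insulin it was 0.11 (0.09, adjusted p = 0.67), and the difference between the states passed the threshold (adjusted p = 0.0021). Cdkn2a, the locus of the CDK inhibitor p16 and of Arf, rose from 27.1 ± 9.34 to 50.4 ± 6.58 CPM (0.92, adjusted p = 3.8e-04) and was 0.67 after insulin (adjusted p = 0.13). Cdkn1b, the inhibitor p27 and a FoxO target, fell from 266 ± 56.9 to 185 ± 11.1 CPM at basal. Its lowest basal Control library, replicate 1 at 189 CPM, lay within the basal DKD range of 169 to 194 CPM. After insulin the log2 fold change of Cdkn1b was -0.03 (adjusted p = 0.96).

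Cholesterol synthesis genes fell more often than they rose. Of 30 tested genes of cholesterol synthesis and LDL uptake, 11 fell and 1 rose, with a median of -0.095. The 3 with the smallest adjusted p were Hsd17b7 and Sc5d, late enzymes of the pathway, and Acat2, which makes acetoacetyl-CoA. Hsd17b7 fell from 165 ± 15.4 to 124 ± 4.45 CPM (-0.42, adjusted p = 1.4e-04) and fell after insulin (-0.32, adjusted p = 0.041). Sc5d fell from 147 ± 16.6 to 103 ± 6.43 CPM and was -0.34 after insulin (adjusted p = 0.12). Acat2 was at 617 CPM in Control replicate 1, 367 to 431 CPM in the other Control libraries and 293 to 332 CPM in DKD. Hmgcs1, Lss, Cyp51, Msmo1, Dhcr7, Sqle and Stard4 were also among the members that fell, and Sqle, squalene epoxidase, is a control point of the later pathway. All but 1 of the 12 called members had the same sign after insulin, where the median was -0.137. With GC and length trends removed, 14 fell and 1 rose.

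Fatty acid and triglyceride synthesis gave 7 lower and 4 higher of 36 genes, with a median of -0.06. Scd1, the stearoyl-CoA desaturase that makes oleate, was at 1168, 986, 1140.2 and 947 CPM in Control and at 545, 646, 625 and 600.0 CPM in DKD, a log2 fold change of -0.81 (0.08, adjusted p = 5.5e-09). After insulin it was -0.36 (0.09, adjusted p = 0.029), and the difference between states had an adjusted p of 0.041. DKD was lower than FoxK2 KD by 0.57 (adjusted p = 6.3e-06) and differed from FoxK1 KD by 0.07 (adjusted p = 0.56). Scd2, the desaturase paralog that was the more abundant of the pair per length of transcript (853 against 217 CPM per kilobase of exon in Control), fell from 4660.4 ± 358 to 3096 ± 170.3 CPM (-0.59, adjusted p = 1.5e-07) and was -0.12 after insulin. Plin3, a lipid droplet coat protein, rose from 134 ± 4.49 to 194 ± 7.42 CPM. With GC and length trends removed, 12 members fell and 2 rose, and without Control replicate 1, 7 fell and 6 rose, with a median of -0.009.

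Fatty acid oxidation and PPAR target genes had 9 higher and 2 lower members of 43, with a median of 0.028. The count of lower members was 5 without Control replicate 1. With GC and length trends removed, 6 rose and 3 fell, and the median was 0.011. Acad11, an acyl-CoA dehydrogenase, rose from 50.5 ± 6.63 to 71.2 ± 2.79 CPM, and Acaa1a, the peroxisomal thiolase, from 68.0 ± 10.7 to 90.8 ± 7.93 CPM. Acot2, a mitochondrial acyl-CoA thioesterase, fell from 21.2 ± 3.36 to 12.3 ± 3.09 CPM. After insulin no member of this list was called, and Acot2 was at 0.23.

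Most messenger RNAs of the mitochondrial genome fell at basal. Of 11 tested, 7 fell and 3 rose, with a median of -0.477. mt-Nd5, a complex I subunit, was at 1567, 2110.4, 1888 and 2751 CPM in Control and at 978, 1254, 1084 and 1153 CPM in DKD, with a log2 fold change of -0.90 (0.12, adjusted p = 4.0e-06). mt-Nd4 was at 676, 1051, 1264 and 1320.2 CPM in Control and at 428, 623, 649 and 549.5 CPM in DKD (-0.94, adjusted p = 8.7e-05). mt-Nd6, which is transcribed from the opposite strand of the genome, fell from 329 ± 46.9 to 148 ± 21.6 CPM (-1.15, adjusted p = 8.1e-09) and is among the 83 genes of the divide between libraries. None of the 3 genes overlapped between groups, and for mt-Nd5 and mt-Nd4 Control replicate 1 was the Control library closest to DKD. The other members that fell were mt-Co1, mt-Cytb, mt-Nd1 and mt-Nd2. mt-Co2, mt-Co3 and mt-Atp6, which rose, were counted at means of only 5.25, 3.51 and 2.54 CPM in Control, against 4308 CPM for mt-Co1, and mitochondrial genes have near-identical nuclear copies, so their counts are uncertain. After insulin no member was called, the median was 0.12, and mt-Nd5, mt-Nd4 and mt-Nd6 were at -0.14, -0.04 and -0.17. The difference between states passed the threshold for mt-Nd6 (adjusted p = 0.0015) and mt-Nd5 (adjusted p = 0.032). With GC and length trends removed, 5 fell and 3 rose, and the median was -0.293.

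Nuclear-encoded respiratory subunits did not move together. In complex I, 4 of 34 rose and 3 fell. Ndufs8 and Ndufs7, iron-sulfur subunits, rose from 54.5 ± 15.1 to 92.0 ± 9.18 and from 28.3 ± 3.03 to 47.99 ± 7.23 CPM, with Ndufs8 among the 52 genes of the divide between libraries, and Ndufa5 fell from 36.7 ± 5.71 to 20.3 ± 1.59 CPM. In complexes II to V and cytochrome c, 9 of 40 fell and 1 rose, or 7 and 3 without Control replicate 1. Beside Cox7c, Cox5a, another cytochrome c oxidase subunit, was at 254 CPM in Control replicate 1, 135 to 153 CPM in the other Control libraries and 90.4 to 97.0 CPM in DKD. Uqcrfs1, the Rieske protein of complex III, fell from 121 ± 22.4 to 80.7 ± 5.66 CPM. After insulin no member of either list was called, and Ndufs8, Cox5a and Uqcrfs1 were at -0.02, -0.35 and 0.09.

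Of 51 genes of mitochondrial import, dynamics and genome maintenance, 8 rose and 7 fell, or 5 and 4 with GC and length trends removed. Dnm1l, the GTPase of mitochondrial fission, fell from 142 ± 10.5 to 107 ± 4.59 CPM (-0.41, adjusted p = 3.8e-04), and Mfn2, a GTPase of mitochondrial fusion, rose from 61.6 ± 5.86 to 83.5 ± 5.84 CPM (0.44, adjusted p = 5.8e-04). Tomm22, the central receptor of the import pore, fell by 0.67. After insulin Dnm1l, Mfn2 and Tomm22 were at -0.09, -0.04 and 0.06. Among 35 genes of the citric acid cycle and pyruvate entry, 9 fell and 2 rose, with a median of -0.104. Pdk1 and Pdk2, kinases that inactivate pyruvate dehydrogenase, changed in opposite directions. Pdk1 was at 83.4, 75.0, 80.6 and 75.9 CPM in Control and at 50.2, 54.4, 52.8 and 52.1 CPM in DKD, while Pdk2 was at 43.1, 42.5, 44.9 and 40.7 CPM in Control and at 60.3, 62.0, 61.5 and 58.0 CPM in DKD. Replicates were tight in both groups and for both genes. The log2 fold changes were -0.59 (adjusted p = 9.9e-06) and 0.50 (adjusted p = 2.8e-04) at basal and -0.19 (adjusted p = 0.39) and 0.66 (adjusted p = 0.0030) after insulin. Dld, the E3 subunit shared by pyruvate and oxoglutarate dehydrogenases, fell from 232 ± 13.9 to 159 ± 17.0 CPM.

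Of 29 glycolysis and gluconeogenesis genes, 5 fell and 1 rose, 20.7% against 21.1% of all tested genes, or 7 and 0 with GC and length trends removed and 6 and 3 without Control replicate 1. Hif1a, the hypoxia-inducible factor, fell by 0.39 and Slc16a1, the lactate transporter MCT1, by 0.42, and both overlapped between groups through a low Control replicate 1. Eno1, an enolase, rose by 0.30 but lost the call with GC and length trends removed (0.09, adjusted p = 0.48) and without DKD replicate 1 (0.26, adjusted p = 0.055). It is among the 52 genes of the divide between libraries and was at -0.004 after insulin (adjusted p = 0.997).

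Autophagy genes rose more often than they fell. Of 45 tested, 10 rose and 4 fell, with a median of 0.075, and the counts were 10 and 3 with GC and length trends removed. Ulk1, the kinase that starts autophagosome formation, was at 54.1, 71.8, 64.0 and 68.8 CPM in Control and at 92.2, 104, 106 and 101 CPM in DKD. Atg7, the E1-like enzyme of ATG8 conjugation, was at 109, 101, 103 and 98.0 CPM in Control and at 159, 154, 154 and 166 CPM in DKD. Both were higher in every DKD library, by 0.63 (adjusted p = 5.3e-06) and 0.63 (adjusted p = 5.1e-06) on the log2 scale. DKD exceeded each single knockdown for both (adjusted p from 4.5e-05 to 0.0077), across the divide between libraries. After insulin they were at 0.19 (adjusted p = 0.44) and 0.33 (adjusted p = 0.12). The others that rose were Wdr45, Map1lc3a, Uvrag, Calcoco1, Pink1, Atg4a, Wipi1 and Becn1. Gabarap, an ATG8 protein itself, fell instead, from 783, 472, 559 and 708 CPM to 373, 352, 372 and 336 CPM (-0.82, adjusted p = 1.7e-06), and was 0.15 after insulin, with the difference between states at an adjusted p of 0.0010. Gabarap is among the 83 genes that were higher in all 12 libraries on the other side of the divide. The remaining members that fell were Bnip3, Atg2b and Tmem41b. After insulin 3 members were higher and none lower, with a median of 0.129.

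Of 47 lysosomal genes, 8 rose and 5 fell, with a median of 0.096, or 5 and 4 with GC and length trends removed. Ctsf, the protease cathepsin F, was at 96.1, 90.3, 86.8 and 87.0 CPM in Control and at 152, 142, 136 and 130.2 CPM in DKD. Its log2 fold change was 0.64 (0.08, adjusted p = 4.9e-07) at basal and 0.91 (0.10, adjusted p = 7.1e-07) after insulin. Ctsa, cathepsin A, rose from 317 ± 16.1 to 417 ± 21.9 CPM but not with GC and length trends removed (adjusted p = 0.058). Atp6v1d, a subunit of the vacuolar proton pump, fell from 250.4 ± 16.7 to 191 ± 14.3 CPM and was 0.08 after insulin.

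Glutathione and NRF2 target genes had 8 higher and 6 lower of 46, and 4 higher and 8 lower with GC and length trends removed. Gstm1 and Gstm2, glutathione S-transferases of the mu class whose similar sequences may share reads, rose in both states. Gstm1 was at 70.3, 66.0, 62.5 and 68.9 CPM in Control and at 135, 102, 146 and 118 CPM in DKD, with log2 fold changes of 0.90 (adjusted p = 1.1e-06) at basal and 0.82 (adjusted p = 6.0e-04) after insulin. Gstm2 rose from 8.01 ± 0.258 to 16.8 ± 1.10 CPM (1.07, adjusted p = 4.8e-06) and by 0.77 after insulin (adjusted p = 0.017). Both were higher in DKD than in each single knockdown (adjusted p from 5.7e-04 to 0.0018). Abcc2, the canalicular exporter of glutathione conjugates, fell from 1243 ± 75.1 to 892 ± 41.0 CPM and was -0.08 after insulin.

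Of 36 BCL2 family, caspase and death receptor genes, 5 rose, among them Fas, Tradd, Bcl2l1 and Tnfrsf10b, and 1 fell, Cycs, the gene of cytochrome c, so that 16.7% were called against 21.1% of all tested genes. Without Control replicate 1 the counts were 10 and 2. Fas, the death receptor, was at 34.0, 42.5, 53.8 and 48.4 CPM in Control and at 69.2, 67.5, 64.8 and 87.0 CPM in DKD, and it rose by 0.69 (0.14, adjusted p = 4.3e-04) at basal and 0.64 (0.16, adjusted p = 0.041) after insulin. Cycs fell from 18.2 ± 1.33 to 12.2 ± 1.84 CPM, which did not hold with GC and length trends removed (adjusted p = 0.14). Bcl2l1 encodes the survival protein BCL-XL, so the 5 that rose were not all promoters of death. Of 31 p53 target genes 8 rose and 0 fell, with a median of 0.169. They were Fas, Psrc1, Gadd45a, Gadd45g, Tigar, Aen, Trp53 and Plk2. Psrc1, a microtubule-binding protein, rose from 40.7 ± 5.56 to 56.9 ± 3.17 CPM, and Gadd45a, a stress sensor that is a FoxO target as well, from 5.65 ± 0.745 to 9.87 ± 1.57 CPM. After insulin the log2 fold change of Gadd45a was -0.07 (adjusted p = 0.96). With GC and length trends removed 9 rose, without Control replicate 1 14 rose and 1 fell, and after insulin 1 (Fas) was higher and the median was 0.095.

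Genes of ATF4, amino acid synthesis and the unfolded protein response had 8 lower and 3 higher of 54, and 9 lower and 10 higher without Control replicate 1. Asns, asparagine synthetase, fell from 184 ± 25.6 to 141 ± 11.6 CPM and Psph, the last enzyme of serine synthesis, from 53.8 ± 5.96 to 36.5 ± 3.56 CPM. Stc2, a secreted glycoprotein induced by ER stress, rose from 72.3 ± 22.2 to 113 ± 7.29 CPM. After insulin Asns, Psph and Stc2 were at -0.18, -0.44 and 0.49, none of them called.

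Chemokines, NF-kB feedback, acute-phase and adhesion genes split. Of 41 tested, 7 rose and 8 fell, with a median of -0.011, or 4 and 8 with GC and length trends removed. Ccl2, the monocyte chemoattractant MCP-1, was at 1484, 1404, 1616 and 1475 CPM in Control and at 665, 763, 819.9 and 769 CPM in DKD, a log2 fold change of -0.99 (0.11, adjusted p = 2.0e-07). Vcam1, an adhesion molecule for leukocytes, was at 351, 271, 282 and 280.0 CPM in Control and at 148, 159.7, 160.1 and 166 CPM in DKD (-0.90, adjusted p = 1.4e-09). Tnip1, an inhibitor of NF-kB signalling, rose from 73.2 ± 7.81 to 136 ± 14.9 CPM (0.89, adjusted p = 2.9e-08). After insulin the 3 genes were at -0.09, -0.22 and 0.28, and the difference between states passed the threshold for each (adjusted p = 0.0046, 0.0015 and 0.024). Ccl2 is among the 83 genes of the divide between libraries. The other members that fell were the chemokines Cxcl10, Cxcl5 and Cxcl1, with Rel, Tlr3 and Il33, and the others that rose were Lcn2, Saa3, Nfkbib, Nfkbie, Il1r1 and Icam1. After insulin 2 were higher and 2 lower.

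Of 29 interferon-stimulated genes, 3 rose and 1 fell, or 2 and 3 with GC and length trends removed. Psmb10 and Tap1, of antigen processing, rose from 8.76 ± 3.68 to 16.5 ± 2.36 and from 4.58 ± 1.12 to 8.35 ± 0.724 CPM, and Eif2ak2, the double-stranded RNA sensor PKR, fell from 106 ± 24.1 to 73.1 ± 9.34 CPM.

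Matrix and adhesion genes rose more often than they fell. Of 44 tested collagens, laminins, integrins and matrix proteins, 13 rose and 3 fell, with a median of 0.168. Beside Thbs1, Itga3, the integrin alpha 3 chain, was at 232, 228, 223 and 217 CPM in Control and at 305, 326, 301 and 289 CPM in DKD (0.44, adjusted p = 7.8e-05), and Lamb1, a laminin beta chain, rose from 10.7 ± 2.22 to 20.6 ± 4.71 CPM. The other 10 were Fbln2, Hspg2, Col12a1, Itgb4, Lamb2, Sdc1, Fn1, Itgb3, Sparc and Lama5. Itga6 and Dag1 were among the 3 that fell. After insulin the median was 0.041, with 2 higher and 1 lower, and Itga3 and Lamb1 were at 0.05 and 0.35. Of 39 YAP/TEAD and SRF target genes, 13 rose and 2 fell, with a median of 0.162, and after insulin none was called and the median was -0.027. Actn1, the actin crosslinker alpha-actinin 1, rose from 443 ± 29.7 to 538 ± 26.2 CPM and was -0.14 after insulin. Arhgef17, a guanine nucleotide exchange factor, rose by 0.39, a call lost when only the 8 libraries were fitted (adjusted p = 0.066). Myof, a membrane repair protein of the ferlin family, fell from 1329 ± 117 to 1043 ± 59.3 CPM. Without Control replicate 1, 12 rose and 4 fell.

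**Figure D5:**
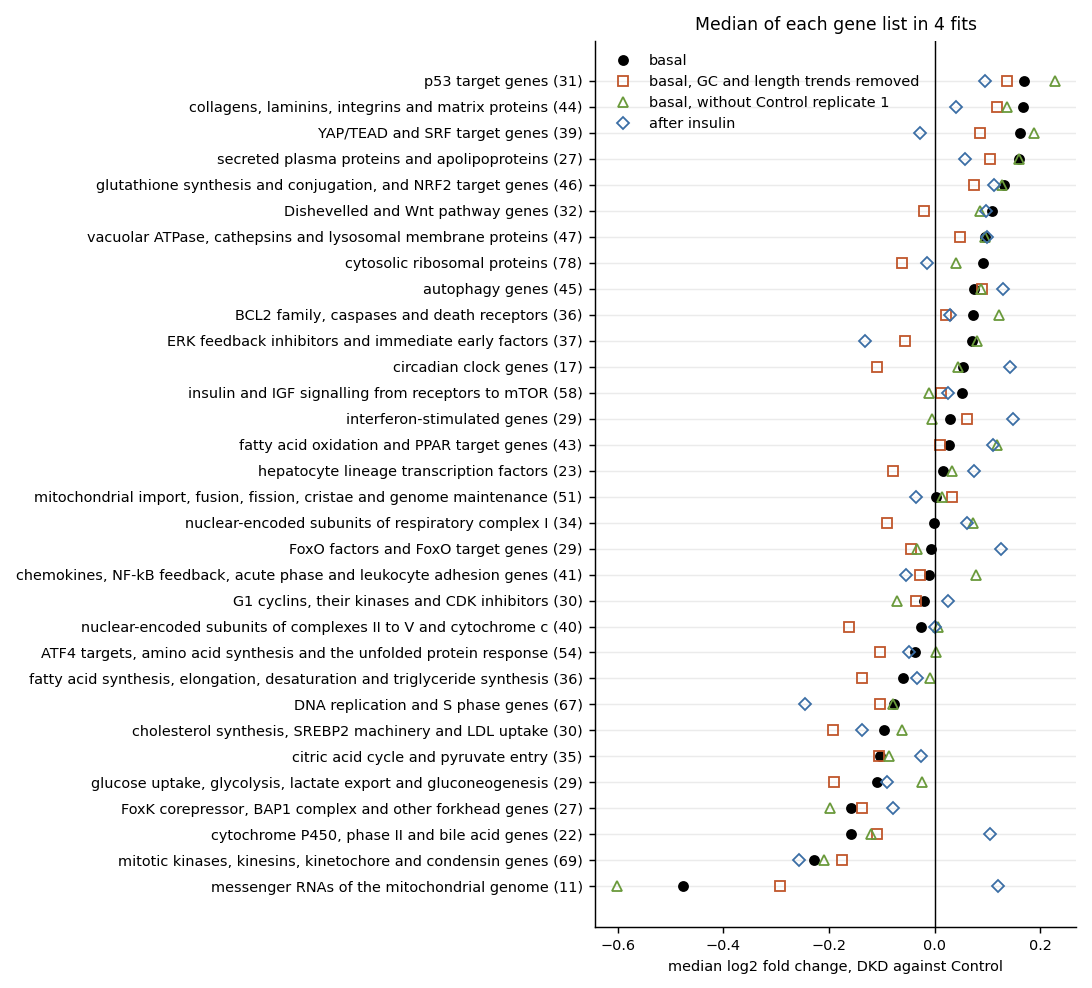
Median log2 fold change of DKD against Control cells over the tested members of each of 32 gene lists, at basal, at basal with GC and length trends removed, at basal without Control replicate 1, and after insulin. The mitotic list lay between -0.257 and -0.176 in all 4 fits, whereas the mitochondrially encoded messengers went from -0.601 without Control replicate 1 to 0.12 after insulin.

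Secreted plasma protein genes rose more often than they fell. Of 70 plasma protein and apolipoprotein genes, 27 were tested and 9 had no count in any of the 8 libraries. Of the 27, 8 rose and 2 fell (Itih2 and Cp), with a median of 0.16. C3, the central complement component, was at 365, 259, 244 and 387 CPM in Control and at 661, 601, 727 and 556 CPM in DKD, with log2 fold changes of 1.02 (0.15, adjusted p = 1.6e-05) at basal and 0.96 (0.18, adjusted p = 0.0018) after insulin. Against the same Control samples C3 was at 0.97 in FoxK2 KD and 0.18 in FoxK1 KD cells, and DKD differed from FoxK1 KD by 0.83 (adjusted p = 2.2e-04) but from FoxK2 KD by 0.04 (adjusted p = 0.88). Serpina1a, an alpha-1 antitrypsin whose promoter stretch is printed with the motifs, was at 15.9, 10.8, 13.9 and 12.3 CPM in Control and at 27.6, 25.9, 26.8 and 31.1 CPM in DKD, and rose by 1.09 (adjusted p = 1.0e-06) at basal and 1.48 (adjusted p = 1.3e-06) after insulin. Its near-identical paralog Serpina1b rose by 0.85 and 1.18, and reads may be shared between them. The others that rose were Ambp, Cfb, Gc, Rbp4 and Cfi.

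Of 23 liver transcription factors 5 fell and 2 rose, or 3 and 1 with GC and length trends removed and 4 and 4 without Control replicate 1. Sox9, a factor of biliary and progenitor cells, fell from 257 ± 26.1 to 188 ± 9.38 CPM. Tcf7l2, the main Wnt-responsive TCF factor of liver, fell from 51.9 ± 4.14 to 35.8 ± 3.78 CPM (-0.54, adjusted p = 4.7e-04) and was 0.48 after insulin (adjusted p = 0.064), with the difference between states at an adjusted p of 9.6e-04. Sox9 was at -0.04 after insulin. Of 55 cytochrome P450, phase II and bile acid genes, 22 were tested, 4 rose and 5 fell. Slc10a2, the ileal-type bile acid transporter, fell from 33.3 ± 5.70 to 22.3 ± 3.54 CPM with overlapping groups, a call lost with GC and length trends removed (adjusted p = 0.21). Sult1c2, a sulfotransferase, and Cyp3a13, a drug-metabolizing P450, fell by 0.50 and 0.44, and the 3 genes were at 0.18 each after insulin.

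Cell type markers were read as a check of the line. Of 15 hepatocyte markers, 9 were tested and 3 rose, Serpina1b, Krt8 and Hnf4a. The summed level of the 15 was 2154 to 2711 CPM in Control and 2801 to 2875 CPM in DKD. Most of the sum came from 2 keratins, Krt18 (means of 1195.9 CPM in Control and 1388.3 in DKD) and Krt8 (553.5 and 741.1). Krt18 was not called. Apob (568.3 and 446.4 CPM) and Ttr (34.41 and 31.1 CPM) were lower in DKD and not called. Krt8 and Hnf4a lost the call with GC and length trends removed (adjusted p = 0.18 and 0.14), and Krt8 is among the 52 genes of the divide between libraries. After insulin Krt8 and Hnf4a were at -0.18 and 0.009, and neither was called. Albumin was low, at 9.16 ± 6.78 CPM in Control and 6.07 ± 1.53 CPM in DKD, and the urea cycle gene Cps1 was under 1 CPM. Of 8 cholangiocyte markers, Epcam and Cldn4 had no count, 2 fell, among them Sox9, and Krt7 rose (0.74, adjusted p = 0.0012), with summed levels of 1856 to 2315 CPM in Control and 1822 to 2085 CPM in DKD. The 10 stellate cell markers summed to at most 0.536 CPM in Control and 1.39 CPM in DKD, and the 8 endothelial markers to at most 2.58 CPM in either group. The 8 macrophage markers summed to 8.22 to 12.9 CPM in Control and 15.7 to 18.2 CPM in DKD, nearly all of it from Csf1r, which rose by 0.79 (adjusted p = 0.0010), while Adgre1, Clec4f, Marco and Cd5l had no count. In bulk RNA, a change in the share of cells in a state and a change in RNA per cell cannot be told apart.

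In the insulin and IGF pathway, 9 of 58 genes rose and 3 fell, or 6 and 5 with GC and length trends removed and 8 and 7 without Control replicate 1. Sgk1, a kinase activated by mTORC2, was at 72.0, 49.5, 59.0 and 64.1 CPM in Control and at 88.4, 83.2, 87.5 and 79.6 CPM in DKD, and it rose by 0.47 (0.10, adjusted p = 0.0014) at basal and 0.72 (0.13, adjusted p = 0.0018) after insulin. Mapkap1, the mTORC2 subunit SIN1, was at 48.2, 61.0, 52.1 and 50.2 CPM in Control and at 70.3, 75.6, 81.4 and 80.9 CPM in DKD (0.54, adjusted p = 2.2e-04) but 0.02 after insulin, and is among the 52 genes of the divide between libraries. Map2k2, the kinase MEK2, rose by 0.43, a call lost with GC and length trends removed (adjusted p = 0.052). The others that rose were Irs1, Grb14, Akt1s1, Hras, Pik3r2 and Tsc1, and Sos1, Braf and Gsk3b fell. Neither the insulin receptor nor the IGF-1 receptor was among the called members.

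FoxO factors and targets had 4 lower and 2 higher of 29 at basal (4 and 4 with GC and length trends removed, 3 and 5 without Control replicate 1), and 3 higher and none lower after insulin, where the median was 0.125. Bnip3, a mitophagy receptor, was at 45.9, 39.8, 46.4 and 41.2 CPM in Control and at 23.6, 20.4, 21.3 and 25.9 CPM in DKD (-0.91, adjusted p = 6.0e-05) and was -0.05 after insulin, with the difference between states at an adjusted p of 0.040. Cdkn1b, Ccng2 and Mxi1 were the others that fell, and Gadd45a and Fbxo32 rose. Ccng2 is among the 83 genes of the divide between libraries. After insulin Cdkn1b, Ccng2, Mxi1 and Gadd45a were at -0.03, 0.20, 0.13 and -0.07, none of them called, and Fbxo32 was called higher at 0.76. Of 37 ERK feedback and immediate early genes, 4 rose and 2 fell, but 2 rose and 7 fell with GC and length trends removed. Jund and Dusp4 fell by 0.64 and 0.29 with overlapping groups, and neither held without Control replicate 4 (adjusted p = 0.063 and 0.12). Dusp5, at 1.70 ± 0.818 CPM in Control and 3.71 ± 0.843 CPM in DKD, was called at an adjusted p of 0.023 and lost the call in 7 of the alternatives. After insulin the median of the list was -0.132.

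Cytosolic ribosomal proteins had 7 higher and 6 lower of 78, with a median of 0.092 that was -0.062 with GC and length trends removed, where 3 rose and 10 fell. Rpl37a was at 176, 146, 156 and 155 CPM in Control and at 83.8, 82.3, 82.4 and 80.1 CPM in DKD (-0.94, adjusted p = 6.4e-08). Rps4x and Rps21 fell by 0.38 and 0.75. After insulin Rpl37a, Rps4x and Rps21 were at -0.05, -0.02 and 0.17. These genes have many processed pseudogenes, some of which rose, and how reads were split among the copies is uncertain.

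Among FoxK partners and other forkhead genes, 6 of 27 fell and 2 rose, with a median of -0.158. Foxk1 and Foxk2 were themselves 2 of the 6. Sap30, Rbbp7 and Hdac2, subunits of the SIN3 histone deacetylase complex, and Ogt, the O-GlcNAc transferase that joins the BAP1 complex, were the others. Sin3b, a SIN3 scaffold, was at 64.1, 57.0, 50.9 and 53.2 CPM in Control and at 92.8, 81.2, 92.1 and 75.5 CPM in DKD (0.60, adjusted p = 2.1e-04), and Bap1 was the other that rose. DKD exceeded each single knockdown for Sin3b (adjusted p = 1.2e-04 and 8.8e-04). After insulin Sin3b was at 0.06, and Foxk1 and Foxk2 were the members called. Of 32 Dishevelled and Wnt pathway genes, 6 rose and 5 fell, or 3 and 5 with GC and length trends removed. Rnf43, a ubiquitin ligase that removes Wnt receptors, rose from 43.0 ± 7.93 to 64.3 ± 6.06 CPM, and Csnk1a1, the priming kinase of beta-catenin, fell from 456 ± 43.8 to 333 ± 33.1 CPM. Of 17 clock genes only Nr1d2, the repressor REV-ERB beta, was called, at -0.28, and 2 rose and 2 fell without Control replicate 1. Nr1d2 is among the 83 genes of the divide between libraries, and it lost the call with GC and length trends removed (adjusted p = 0.29), with only the 8 libraries fitted (0.071) and without DKD replicate 1 (0.091).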

How the data were processed

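Poly(A) RNA of AML12 cells was sequenced by the authors. The deposited values are raw read counts per gene, 1 library per sample, made per the labels with CASAVA 1.8, STAR 2.4.2a and featureCounts on GRCm38.p4; the strand setting is not given in the sources used here. Names and coordinates came from GENCODE M21 (GRCm38). Genes kept by filterByExpr were fitted in 1 model of 8 groups over the 30 samples with edgeR 4.0.16 (TMM scaling, quasi-likelihood F test, 22 residual degrees of freedom, Benjamini-Hochberg adjustment), and calls were made at an adjusted p under 0.05. Standard errors were derived from the F statistic. Levels are CPM of the TMM-scaled library. The study used limma with a threshold of 0.25. Alternatives used limma 3.58.1 (voom), DESeq2 1.42.0, other filters and scalings, only the groups compared, a replicate block, the removal of spline trends on GC content and transcript length, and each library left out.

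The genes named were Foxk1 and Foxk2, the 8 protein-coding genes with the largest rise and the 8 with the largest fall (called, mean of at least 10 CPM, no overlap between groups), and up to 3 called members of each list with the smallest adjusted p, 106 in all, of which 2 are not reported here. Other called members are given by symbol, or by value where a sentence says so. Comparison, members and lists were chosen with earlier results of these data known. Among 18 pairs of replicates the counts differed by 1.92 to 20.6 in chi-square per degree of freedom, so that none was counted as a duplicate. Same-numbered DKD and Control samples of the same state were hardly correlated in their deviations, and pairing of basal with insulin-stimulated samples was not examined. The fit was tested on simulated data. Promoter sequences were taken from RefSeq.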

Additional observations from a re-analysis of the deposited data

Results flagged for a closer look

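Among the 104 named genes reported, the level in 1 library lay far from the other 3 of its group (Dixon's test) in 10 cases; chance alone flags about 1 in 20 groups, and 2 groups were examined per gene. In 8 of them the library was Control replicate 1. It was the highest Control library for Cox7c (542.7 CPM), Cdkn2a (41.11), Cox5a (253.5), Psrc1 (49.05), Vcam1 (351.0), Sox9 (296.0) and Sult1c2 (106.6), and the lowest for Hells (121.9). The other two were Tap1 in DKD replicate 2 (7.272 CPM, lowest) and Tcf7l2 in DKD replicate 1 (30.15, lowest).

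The effect of DKD differed between the basal and the insulin-stimulated state in 28 of these genes (edgeR, adjusted p under 0.05). The values that follow are the log2 fold change after insulin minus that at basal. Among genes lower at basal, the difference was 1.967 for Cox7c, 1.662 for Krt10, 1.379 for Hint3, 1.156 for Cmtm8, 1.014 for Tcf7l2 and 0.9966 for Acot2. It was 0.9846 for mt-Nd6, 0.7612 for mt-Nd5, 0.6644 for Uqcrfs1 and 0.7318 for Tomm22, all of mitochondria. For the ribosomal protein genes Rpl37a and Rps21 it was 0.8942 and 0.9223, and for Gabarap, Bnip3 and Atp6v1d it was 0.9709, 0.8613 and 0.4719. For Ccl2 and Vcam1 it was 0.8941 and 0.6837, and for the desaturases Scd1 and Scd2 it was 0.4503 and 0.4674. Slc10a2, Sult1c2 and Cyp3a13 had 0.746, 0.6875 and 0.6114. Among genes higher at basal, it was -1.52 for Ftl1-ps1, -0.7627 for Ndufs8, -0.6327 for Ccnd1, -0.6101 for Tnip1, -0.5989 for Krt8 and -0.4215 for Actn1. In all 28 the effect after insulin was smaller than, or opposite to, that at basal. These genes were named by the size or adjusted p of their basal change, which also enters the difference. The selection by itself therefore favours a smaller effect after insulin. The cause was not tested.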

How the results depend on the processing

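At basal, the calls were 636 higher and 663 lower when only the 8 libraries were fitted, 2407 and 2545 at an adjusted p under 0.25, and 364 and 261 with a fold change above 1.5 required. DESeq2 gave 1094 and 1216, limma-voom 1223 and 1151, upper-quartile scaling 1336 and 1076, at least 10 counts in every sample 1111 and 1194, no filter 891 and 1308, and the removal of GC and length trends 802 and 1046. Leaving out 1 library gave 781 to 1480 higher and 901 to 1583 lower. After insulin, DESeq2 gave 107 higher and 72 lower, the removal of GC and length trends 114 and 100, only the groups compared 33 and 7, the 0.25 threshold 419 and 338, and a fold change above 1.5 67 and 9. Leaving out 1 library gave 41 to 83 higher and 13 to 38 lower, and the count of higher or lower genes moved by over 1.5 times without Control insulin replicate 2 or 3 or without any of the 3 DKD insulin libraries. With the replicate number as a block the calls were 1122 and 1176 at basal and 86 and 31 after insulin. Same-numbered DKD and Control samples were hardly correlated in their deviations (0.101, 0.0367, 0.0378 and 0.0676 at basal, 0.0273, -0.202 and -0.0593 after insulin). Of the 106 named genes, none changed direction. All 106 kept the call with DESeq2, limma-voom, the block and upper-quartile scaling. With GC and length trends removed 95 kept it, and with only the 8 libraries 101. Apart from Foxk1 and Foxk2, these genes were named by the size or adjusted p of their basal change. That selection by itself favours keeping the call. Of all 2398 basal calls, 56.2% held with GC and length trends removed and 53.8% with only the 8 libraries. With DESeq2, limma-voom, the block and upper-quartile scaling, 94.4%, 95.4%, 94.8% and 93.6% held. At 2141460 to 5668270 counts per library, genes at a few CPM rest on few reads. Why the counts moved was not tested.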

Other observations

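The response to insulin in the single knockdowns uses none of the 8 basal Control and DKD libraries, and was examined after the DKD calls were seen. It compares insulin-stimulated with basal single-knockdown libraries, which lie on opposite sides of the divide between libraries described above. The counts and shares that follow therefore cannot tell a response to insulin from that divide. In FoxK1 KD cells, 1842 of 11368 tested genes were higher and 1746 lower in the insulin-stimulated than in the basal libraries. Of the 1169 genes higher in basal DKD, 69.3% had a positive log2 fold change with insulin in FoxK1 KD cells, against 51.4% of all genes, and of the 1229 lower ones 70.9% had a negative one, against 48.6%. In FoxK2 KD cells the shares were 62.6% against 50.8% and 69.2% against 49.2%. Single genes did not all follow. mt-Nd5 was at -0.67 in FoxK1 KD and -0.47 in FoxK2 KD cells, Gabarap at -0.49 and -0.55, and Ccl2 at -0.63 and -0.98, all lower in basal DKD as well. Gabarap and Ccl2 are among the 83 genes of the divide between libraries, so their fall in both contrasts was given by that selection. Scd1, lower in basal DKD, was at 0.68 and 0.75 with insulin, and Ctsf, higher in basal DKD, at -0.79 and -0.99. Thbs1, higher in basal DKD, was at -0.08 and -0.56. The GC content of genes moved with the insulin response too (Spearman correlation across genes 0.326 and 0.241), and its part in these shares was not tested.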
